A study of Mus musculus with 8 samples.

Results

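The genes described here govern the passage of a cell from G1 into S phase: the D-type cyclins Ccnd1, Ccnd2 and Ccnd3, the E-type cyclins Ccne1 and Ccne2, the kinases Cdk4, Cdk6 and Cdk2, the retinoblastoma gene Rb1 and the transcription factor gene E2f1. These 10 genes were taken by symbol from the 55401 genes listed for each dish, and each symbol was found. They were read in AML12 cells, immortal mouse hepatocytes from an animal carrying a human TGF-alpha transgene, grown with serum, dexamethasone and an insulin, transferrin and selenium supplement. In 4 dishes the cells were exposed for 1 h to Opti-ELF-WMF, an extremely low frequency weak magnetic field. It had a peak of 100 mG, a pulse width of 4 ms and pulse frequencies between 1 and 8 Hz. The 4 control dishes did not receive these pulses, and the paper's methods describe control cells in the same setup with the stimulator off. All dishes came from a single line. The paper's general methods state that control and exposed cells shared a batch, and whether all 4 dishes of a group shared it is not stated. The control dishes stood in another incubator of the same model, so the field and the incubator cannot be told apart.

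In a cell receiving growth signals, D-type cyclins accumulate and activate CDK4 and CDK6, which begin to phosphorylate RB. RB otherwise binds E2F factors and holds their target genes silent. Once RB is phosphorylated further by cyclin E with CDK2, E2F is released, genes for DNA synthesis are transcribed and the cell commits to S phase. Hepatocytes in the adult liver are mostly quiescent and pass this point when the liver regenerates, with cyclin D1 as a main switch, whereas AML12 cells divide in culture.

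The values were TPM, a measure of transcript abundance per gene length that sums to the same total in every dish, so no library depth can be read from them, and a change in abundant transcripts moves all others. Each dish had 19386 to 20114 genes above 0 TPM. Transcripts of the mitochondrial genome took 8.69% to 9.42% of TPM in control dishes and 5.99% to 7.69% in exposed dishes, without overlap, and the lowest share was in exposed dish 2. All 7 hepatocyte markers listed were at 1 TPM or more in every dish, with a summed level of 4610 to 4831 TPM in control dishes and 4900 to 5147 TPM in exposed dishes, and the difference lay in Krt8 (2206 to 2280 TPM in control, 2305 to 2431 TPM in exposed dishes) and Krt18 (1825 to 1963 and 1992 to 2071 TPM). These keratins made up most of the sum. Alb, which encodes albumin, was at 52.6 to 58.2 TPM in control and 46.1 to 53.0 TPM in exposed dishes. In the same order Ttr was at 333 to 384 and 338 to 366 TPM, and Hnf4a at 180 to 199 and 182 to 218 TPM. Apoa1 and Serpina1a were low, at 4.01 to 5.29 and 3.12 to 4.76 TPM, and at 4.64 to 6.35 and 5.29 to 7.08 TPM. The part of these marker differences in those of the G1/S genes was not tested. Of 4 cholangiocyte or progenitor markers 3 were at 1 TPM or more in every dish, with Krt19 at 1101 to 1244 TPM and Epcam at most at 0.13 TPM. None of the 5 fibroblast or stellate cell markers and none of the 3 endothelial markers reached 1 TPM in all dishes, with sums of at most 1.52 and 0.08 TPM, and 1 of 3 leukocyte markers did, Cd68 at 1.05 to 2.21 TPM.

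All 10 G1/S genes passed the filter of at least 1 TPM in at least 4 dishes, which left 12122 genes for testing with limma on log2(TPM + 1). In bulk RNA, a different share of cells in a phase of the cycle and a different level per cell cannot be told apart. None differed at an adjusted p under 0.05, which was also the case for 0% of all tested genes, while 1894 genes had an unadjusted p under 0.05 by limma. At that unadjusted level 3 of the 10 genes were higher in exposed dishes, Ccnd1, Ccne1 and Cdk4, and 0 were lower. Among all tested genes 15.6% passed the unadjusted threshold in either direction and 12% were higher. In 2 of the 10 genes, Ccnd1 and Cdk4, every exposed dish lay above every control dish, compared with 8.01% of all tested genes (9.87% in either direction). The log2 difference was positive for 8 of the 10 genes and 63.7% of tested genes, and its median was 0.06 for the 10 genes and 0.03 for all tested genes. The largest and the smallest difference among the 10 were 0.18 (Ccne1) and -0.10 (Ccnd2). No p-value is given over the list, since its genes were chosen with results of these data known.

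**Figure D1:**
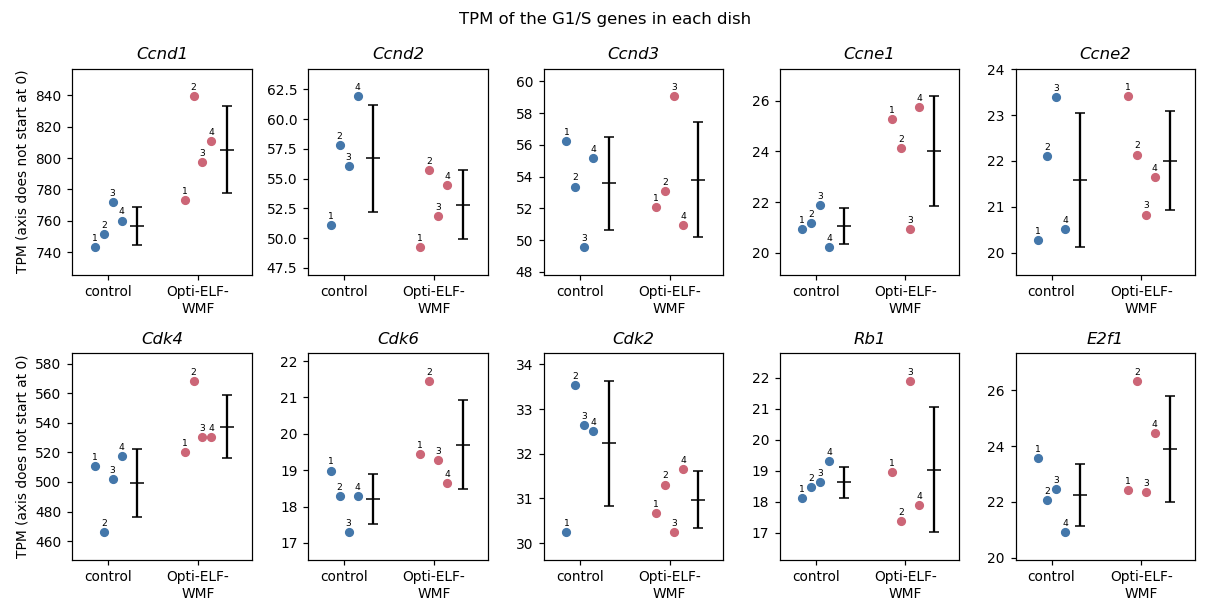
TPM of each G1/S gene in the 4 control and 4 exposed dishes. Points are dishes numbered within their group, the bar beside them is the mean ± SD, and each axis has its own range and does not start at 0. The groups are separate for Ccnd1 and Cdk4 and overlap for the other genes.

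The 10 genes fell into very different ranges of abundance. Ccnd1 and Cdk4 were by far the most abundant, at ranks 175 and 265 of the 12122 tested genes by mean TPM. In control dishes they averaged 757 and 499 TPM, followed by Ccnd2 (56.7 TPM), Ccnd3 (53.6 TPM), Cdk2 (32.2 TPM), E2f1 (22.3 TPM), Ccne2 (21.6 TPM), Ccne1 (21.1 TPM), Rb1 (18.6 TPM) and Cdk6 (18.2 TPM). Neighbours in this order whose control dishes overlapped were Ccnd2 and Ccnd3, E2f1 and Ccne2, Ccne2 and Ccne1, and Rb1 and Cdk6. In exposed dishes Ccnd3 stood above Ccnd2, Ccne1 above E2f1 and Ccne2, and Cdk6 above Rb1, each within overlapping ranges. The coefficient of variation between dishes had a median of 4.48% in control and 5.82% in exposed dishes over the 10 genes, and of 4.01% and 4.54% over the 8286 tested genes with a mean of 10 to 1000 TPM.

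Cyclin D1, the regulatory subunit that links growth factor signals to CDK4 and CDK6, is encoded by Ccnd1 on the reverse strand of chr7:144929931-144939925 (GENCODE M21 on GRCm38). Ccnd1 was at 742.9, 751.4, 771.9 and 760.1 TPM in control dishes 1 to 4 and at 772.9, 839.7, 797.7 and 810.6 TPM in exposed dishes 1 to 4. The 2 groups touched without overlapping, with control dish 3 just below exposed dish 1, and exposed dish 2 was the highest. The mean was 757 ± 12.4 TPM in control and 805 ± 27.8 TPM in exposed dishes (SD, n = 4 each), 6.43% higher. The log2 difference was 0.09 with an SE of 0.03 and a 95% interval of 0.03 to 0.15 (limma, p = 0.0102, adjusted p = 0.179), and a two-sided exact permutation test over the 70 assignments of dishes gave p = 0.0286, the smallest p it allows. Leaving out each dish in turn left the difference between 0.07 and 0.11. When TPM was rescaled without the mitochondrial genes, it was 0.04 (limma, adjusted p = 0.593), no longer past the unadjusted threshold, and the groups overlapped. The exons of Ccnd1 share 1100 bases with those of LTO1 on the opposite strand, which averaged 46.9 TPM.

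Ccnd2, on the reverse strand of chr6:127125162-127152193, encodes cyclin D2, which binds the same kinases. It was at 51.1, 57.8, 56.0 and 62.0 TPM in control dishes and at 49.2, 55.7, 51.9 and 54.5 TPM in exposed dishes. The groups overlapped, with control dish 1 among the exposed dishes and control dish 4 above all others. The mean was 56.7 ± 4.50 TPM in control and 52.8 ± 2.88 TPM in exposed dishes (SD, n = 4 each), a log2 difference of -0.10 with a 95% interval of -0.23 to 0.03 (limma, adjusted p = 0.465). This was opposite in sign to Ccnd1, and was the most negative of the 10 differences. The unadjusted threshold was passed without control dish 1, where it was -0.15 (limma, adjusted p = 0.257), and after rescaling without the mitochondrial genes, where it was also -0.15 (limma, adjusted p = 0.394). It was smaller without control dish 4 (-0.06, limma, adjusted p = 0.697) and without exposed dish 1 (-0.07).

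Ccnd3 encodes cyclin D3, the remaining D-type cyclin, on the forward strand of chr17:47505051-47599691. Its dishes were at 56.3, 53.4, 49.5 and 55.2 TPM in control and at 52.1, 53.1, 59.1 and 51.0 TPM in exposed dishes. Exposed dish 3 was the highest and control dish 3 the lowest, and the ranges were interleaved. Its log2 difference was 0.01 with a 95% interval of -0.12 to 0.13 (limma, adjusted p = 0.979), and its sign changed with the scaling. A processed pseudogene, Ccnd3-ps, is 96.3% identical over 881 aligned bases but reached at most 0.22 TPM, and the 361 exon bases shared with Bysl on the opposite strand belong to a gene at 24.5 TPM.

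As a share of the summed TPM of the 3 D-type cyclins, a ratio within a dish that rescaling does not move, Ccnd1 made up 87.3% ± 0.55 in control and 88.3% ± 0.35 in exposed dishes (SD, n = 4 each), and these overlapped. Ccnd2 made up 6.01%, 6.70%, 6.39% and 7.06% in control dishes and 5.63%, 5.87%, 5.71% and 5.95% in exposed dishes. All exposed dishes were below all control dishes for the Ccnd2 share, by a narrow gap between exposed dish 4 and control dish 1. A share within a dish shows unequal change of its parts and not which part changed. The sum of the 3 genes was 867 ± 13.1 TPM in control and 912 ± 30.5 TPM in exposed dishes, with overlap.

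Cdk4 encodes the main kinase partner of the D-type cyclins, and lies on the forward strand of chr10:127063534-127067920. It was at 510.7, 465.9, 502.1 and 517.5 TPM in control dishes and at 520.2, 568.5, 530.5 and 530.3 TPM in exposed dishes. The groups did not overlap, control dish 2 lay well below the other control dishes and exposed dish 2 well above the other exposed dishes. The mean was 499 ± 23.0 TPM in control and 537 ± 21.3 TPM in exposed dishes (SD, n = 4 each), 7.68% higher. The log2 difference was 0.11 with an SE of 0.04 and a 95% interval of 0.02 to 0.19 (limma, p = 0.0215, adjusted p = 0.226, exact permutation p = 0.0286). The unadjusted threshold was no longer passed without control dish 2 (0.07, limma, adjusted p = 0.407) or without exposed dish 2 (0.08, adjusted p = 0.424). Nor was it passed after rescaling without the mitochondrial genes (0.06, limma, adjusted p = 0.591), where the groups overlapped. Cdk4 shares 641 exon bases with Tspan31 on the opposite strand, which averaged 92.1 TPM.

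The promoters of Cdk4 and Cdk2 are shown because Cdk4 held several copies of the E-box and Cdk2 held E2F-type letters. Windows from 250 bases before to 50 bases after a RefSeq start (GRCm38.p6) were at hand for 6 of the 10 genes: Ccnd3, Ccne1, Cdk4, Cdk6, Cdk2 and E2f1. Those of E2f1 (chr2:154569377-154569676) and Cdk6 (chr5:3343643-3343942) lay inside the genes as annotated in GENCODE M21. Letters around the outermost start of these genes were therefore not searched. The E2F-type letters TTTCCCGC, TTTGGCGC, TTTCGCGC and TTTGCCGC were searched on both strands, and 1 of the 6 genes, Cdk2, held one of them. The E-box CACGTG, which reads the same on both strands, was added after the sequences had been seen, and Cdk4 held 4 and Cdk6 1. Capitals mark these letters, and each sequence reads 5′ to 3′ on the strand of the gene, with Cdk4 on the forward strand of chr10:127063285-127063584 and Cdk2 on the reverse strand of chr10:128705002-128705301.
Cdk4: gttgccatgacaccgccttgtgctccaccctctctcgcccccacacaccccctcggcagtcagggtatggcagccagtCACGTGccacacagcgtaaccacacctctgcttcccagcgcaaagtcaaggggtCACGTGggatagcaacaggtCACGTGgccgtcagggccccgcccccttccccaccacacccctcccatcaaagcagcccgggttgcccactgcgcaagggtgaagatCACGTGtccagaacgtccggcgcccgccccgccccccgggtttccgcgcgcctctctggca
Cdk2: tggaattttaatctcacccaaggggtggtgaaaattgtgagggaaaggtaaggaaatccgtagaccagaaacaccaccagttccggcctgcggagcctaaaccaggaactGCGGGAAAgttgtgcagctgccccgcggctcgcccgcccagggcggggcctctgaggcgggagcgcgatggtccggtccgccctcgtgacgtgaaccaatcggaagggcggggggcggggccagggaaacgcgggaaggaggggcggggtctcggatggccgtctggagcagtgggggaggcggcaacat
In the Cdk4 window the E-boxes begin 172, 118, 98 and 11 bases before the start, and MYC with its partner MAX is a factor known to bind such letters. Of all 32851 windows of this length 7.15% held an E-box and 8, Cdk4 among them, held 4 or more. In Cdk2 the letters GCGGGAAA, the reverse complement of TTTCCCGC, begin 140 bases before the start, and 2.26% of all windows held at least one of the E2F-type letters. None of these letters overlap, and a match describes the sequence without showing a bound site.

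Cdk6, on the forward strand of chr5:3341485-3531008, encodes the other kinase of the D-type cyclins. It was at 19.0, 18.3, 17.3 and 18.3 TPM in control dishes and at 19.4, 21.5, 19.3 and 18.7 TPM in exposed dishes. Exposed dish 4 lay below control dish 1, exposed dish 2 was again the highest, and the remaining exposed dishes were above all control dishes. Its difference of 0.11, equal in size to that of Cdk4, had a 95% interval of -0.01 to 0.22 (limma, adjusted p = 0.350, exact permutation p = 0.0571). Cdk4 made up 96.5% ± 0.20 of the summed TPM of Cdk4 and Cdk6 in control and 96.5% ± 0.11 in exposed dishes (SD, n = 4 each), and the sum was 517 ± 23.1 TPM in control and 557 ± 22.4 TPM in exposed dishes, without overlap. The ratio of Ccnd1 to Cdk4, 1.52 ± 0.07 in control and 1.499 ± 0.02 in exposed dishes, overlapped.

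Ccne1 encodes cyclin E1, the partner of CDK2 at the end of G1, on the reverse strand of chr7:38097984-38107534. It was at 21.0, 21.2, 21.9 and 20.2 TPM in control dishes and at 25.3, 24.1, 20.9 and 25.8 TPM in exposed dishes. Exposed dishes 1, 2 and 4 were above all control dishes, and exposed dish 3 was within them. The mean was 21.1 ± 0.70 TPM in control and 24.0 ± 2.18 TPM in exposed dishes (SD, n = 4 each), 14.0% higher, which was the largest of the 10 differences. The log2 difference was 0.18 with an SE of 0.06 and a 95% interval of 0.04 to 0.32 (limma, p = 0.0179, adjusted p = 0.215), and the exact permutation test over dishes gave p = 0.114. Without exposed dish 3 the difference was 0.24 (limma, adjusted p = 0.205). It no longer passed the unadjusted threshold without exposed dish 1 (0.15, adjusted p = 0.308), without exposed dish 4 (0.14, adjusted p = 0.326) or after rescaling without the mitochondrial genes (0.13, limma, adjusted p = 0.481).

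Ccne2 encodes cyclin E2, a close relative of cyclin E1, on the forward strand of chr4:11191351-11204779. It was at 20.3, 22.1, 23.4 and 20.5 TPM in control dishes and at 23.4, 22.1, 20.8 and 21.6 TPM in exposed dishes, so that the 2 groups covered the same range. Its log2 difference was 0.03 with a 95% interval of -0.09 to 0.15 (limma, adjusted p = 0.851). Ccne1 made up 49.4% ± 1.06 of the summed TPM of the E-type cyclins in control and 52.1% ± 1.74 in exposed dishes (SD, n = 4 each), with overlap between control dish 1 and exposed dish 3. Ccne2 shares 609 exon bases with Ints8 on the opposite strand, which averaged 25.3 TPM.

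Cdk2, the kinase of the E-type cyclins, lies on the reverse strand of chr10:128697939-128705031. It was at 30.2, 33.5, 32.7 and 32.5 TPM in control dishes and at 30.7, 31.3, 30.3 and 31.7 TPM in exposed dishes. Control dishes 2, 3 and 4 were above every exposed dish, while control dish 1 was below them all. Exposed minus control was -0.05 on the log2 scale with a 95% interval of -0.14 to 0.03 (limma, adjusted p = 0.539). It passed the unadjusted threshold without control dish 1 (-0.08, limma, adjusted p = 0.314) and after rescaling without the mitochondrial genes (-0.10, limma, adjusted p = 0.379), and it was smaller without control dish 2 (-0.04, limma, adjusted p = 0.775). The ratio of the summed E-type cyclins to Cdk2 was 1.36, 1.29, 1.39 and 1.25 in control dishes and 1.59, 1.48, 1.38 and 1.497 in exposed dishes. Exposed dish 3 alone lay within the control range of this ratio.

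Rb1 encodes RB, the brake that the kinases release, and spans the reverse strand of chr14:73183673-73325822. It was at 18.1, 18.5, 18.6 and 19.3 TPM in control dishes and at 19.0, 17.4, 21.9 and 17.9 TPM in exposed dishes. The control dishes were close together, while the exposed dishes extended both below and above them, with dish 3 the highest. The coefficient of variation was 2.69% in control and 10.6% in exposed dishes. On the log2 scale the groups differed by 0.02 with a 95% interval of -0.12 to 0.17 (limma, adjusted p = 0.901), and without exposed dish 3 it was -0.04. Rb1 shares 488 exon bases with Rcbtb2 (22.3 TPM) and 408 with Lpar6 (7.24 TPM), both on the opposite strand.

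E2f1 encodes the E2F factor most closely tied to release from RB, on the reverse strand of chr2:154559407-154569892. It was at 23.6, 22.1, 22.5 and 20.9 TPM in control dishes and at 22.4, 26.3, 22.4 and 24.5 TPM in exposed dishes. Exposed dishes 2 and 4 were above all control dishes, and exposed dishes 1 and 3 were within them. A difference of 0.10 on the log2 scale had a 95% interval of -0.04 to 0.23 (limma, adjusted p = 0.480). Exposed dish 2, which held the lowest mitochondrial share, was also the highest dish for Ccnd1, Cdk4, Cdk6 and E2f1. That dish was the lowest of all for Rb1, and was not the highest for Ccnd2, Ccnd3, Ccne1, Ccne2 or Cdk2. By median-of-ratios scaling, which sets the typical gene equal between dishes, exposed dish 2 had the largest factor (1.03). By upper-quartile scaling its factor was 1.002, below those of exposed dish 3 (1.03) and exposed dish 4 (1.01). A link to the mitochondrial share was not tested. Without exposed dish 2 the difference of E2f1 was 0.05 and that of Cdk6 was 0.07.

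**Figure D2:**
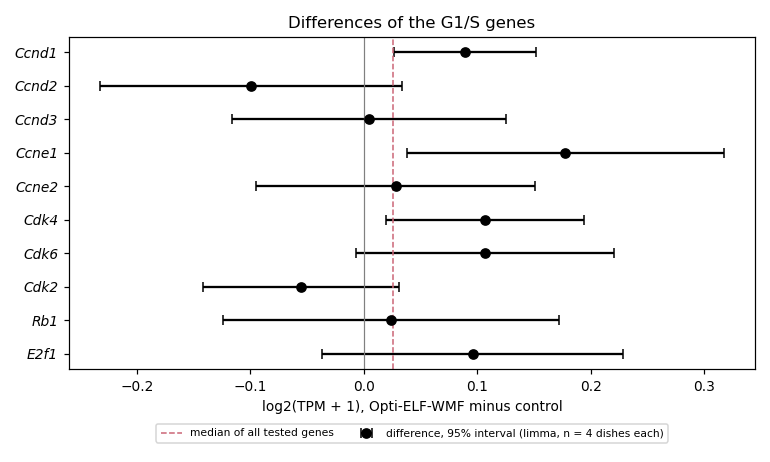
Difference of each G1/S gene in log2(TPM + 1), Opti-ELF-WMF minus control, with its 95% interval from limma (n = 4 dishes each). The intervals of Ccnd1, Ccne1 and Cdk4 lie above 0, and the dashed line is the median of all tested genes, 0.03.

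Which members passed the unadjusted threshold changed with the scaling. Under median-of-ratios scaling, which sets the typical gene to no difference, 5 of the 10 passed the unadjusted threshold in limma, with Ccnd1, Ccne1 and Cdk4 higher and Ccnd2 and Cdk2 lower. Under upper-quartile scaling 0 did, and after rescaling without the mitochondrial genes 2 did, Ccnd2 and Cdk2, both lower. Of all tested genes 11.8%, 9.71% and 11.1% passed the unadjusted threshold under these scalings in turn, against 15.6% for TPM as deposited. The share of unadjusted calls that were higher over all genes moved with the scaling, from 76.6% for TPM as deposited to 47.1%, 40.9% and 29.9% under these scalings. Ccnd1, Ccne1, Cdk4, Cdk6 and E2f1 were positive and Ccnd2 and Cdk2 negative under all 4 scalings, whereas Ccnd3, Ccne2 and Rb1 changed sign. Each rescaling moved the 10 differences downward by nearly the same amount.

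**Figure D3:**
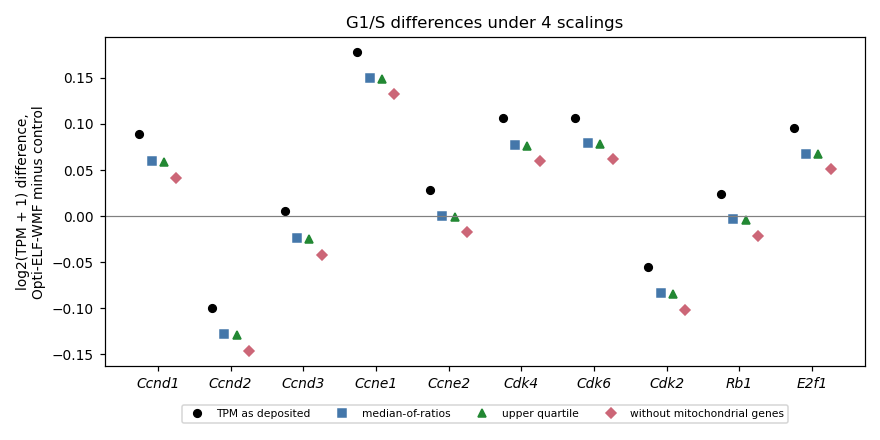
Difference of each G1/S gene in log2(TPM + 1), Opti-ELF-WMF minus control, for TPM as deposited and under median-of-ratios scaling, upper-quartile scaling and rescaling without mitochondrial genes. Each gene shifts downward together, and Ccne1 remains the highest (0.18 to 0.13) and Ccnd2 the lowest (-0.10 to -0.15).

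Around these members, 58 of 59 further listed genes of the G1/S network were present in the files, with Skp1 found as Skp1a, and 57 passed the filter. Of these, 19 were higher at an unadjusted p under 0.05, 0 were lower and 0 passed the adjusted threshold in limma, with 48 positive differences and a median log2 difference of 0.07. Over all tested genes 12% were higher, 3.65% lower and 63.7% positive. Under median-of-ratios scaling 9 of the 57 were higher and 0 lower, against 5.55% and 6.23% of all tested genes, and under upper-quartile scaling 7 and 0, against 3.97% and 5.74%. After rescaling without the mitochondrial genes 5 were higher (Mcm3, Mcm5, Pcna, Myc and Tfdp1) and 2 lower (Cdkn1b and Slbp), against 3.31% and 7.77%. The other pocket proteins, Rbl1 and Rbl2, which restrain E2F as RB does, had differences of 0.06 and -0.01 (limma, adjusted p = 0.482 and 0.912). Against 12% of all tested genes, 2 of 9 other E2F and DP genes passed the unadjusted threshold, both higher. These were Tfdp1, which encodes a DP partner of E2F factors, and E2f8, a repressor of the family. Tfdp1 was at 173, 171, 175 and 180 TPM in control dishes and at 184, 199, 193 and 191 TPM in exposed dishes, which did not overlap, and its difference was 0.13 (limma, adjusted p = 0.122). Tfdp1 kept an unadjusted p under 0.05 under all 4 scalings, with a difference of 0.09 after rescaling without the mitochondrial genes. E2f8 differed by 0.08 (limma, adjusted p = 0.279), and passed the unadjusted threshold under none of the other 3 scalings, with 0.03 after rescaling without the mitochondrial genes, nor in 5 of the 8 fits that left out a dish. The others, E2f2, E2f3, E2f4, E2f5, E2f6, E2f7 and Tfdp2, lay between -0.06 and 0.08. With TPM as deposited, every exposed dish also lay above every control dish for E2f8, E2f3 and Rbl1. This was so for 17 of the 57 network genes, and 0 were separate in the other direction. Of all tested genes 8.01% were separate and higher, and 9.87% were separate in either direction.

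None of the 6 tested CDK inhibitors passed the unadjusted threshold with TPM as deposited, and their median difference was 0.00421. Cdkn1a, which encodes p21 and was the most abundant of them at 160 TPM in both groups, differed by 0.00308 with a 95% interval of -0.06 to 0.07. Cdkn1b, the gene of p27, differed by -0.03 (-0.09 to 0.03), but after rescaling without the mitochondrial genes it was lower by the unadjusted threshold (-0.08, limma, adjusted p = 0.355). Among the INK4 genes, whose INK4 products bind CDK4 and CDK6, Cdkn2a had 39.4 ± 3.24 TPM in control and 43.0 ± 2.39 TPM in exposed dishes (SD, n = 4 each). Its difference was 0.13 with a 95% interval of -0.01 to 0.26 (limma, adjusted p = 0.350). TPM per gene does not separate the INK4 transcripts of Cdkn2a from its other transcripts. Cdkn2a passed the unadjusted threshold without control dish 4 (0.18, limma, adjusted p = 0.222) and without exposed dish 3 (0.15, adjusted p = 0.332). Cdkn2b, Cdkn2c and Cdkn2d differed by 0.03, 0.01 and -0.02. Cdkn1c, the gene of p57, was at 0.53 TPM or less in every dish and was not tested. The summed INK4 genes, with all Cdkn2a transcripts included, were at 120 ± 4.16 TPM in control and 124 ± 6.45 TPM in exposed dishes. The summed CIP/KIP inhibitors were at 224 ± 3.67 and 223 ± 6.11 TPM, with overlap in both cases.

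The genes that E2F switches on at entry into S phase are the longest list outside the members. Of these, 10 of 15 were higher by the unadjusted threshold, against 12% of all tested genes, 0 were lower, and the median log2 difference was 0.09. Mcm3, a subunit of the replicative helicase, was at 131, 129, 133 and 130 TPM in control dishes and at 147, 147, 142 and 144 TPM in exposed dishes. Pcna, the sliding clamp of DNA polymerase, was at 280, 282, 279 and 286 TPM in control dishes and at 317, 311, 311 and 299 TPM in exposed dishes. Both were separate between the groups, with differences of 0.15 for Mcm3 (limma, adjusted p = 0.122) and 0.13 for Pcna (limma, adjusted p = 0.122). The other S-phase genes that passed the unadjusted threshold were Mcm5, Rrm1, Tyms, Tk1, Uhrf1, Rrm2, Cdc6 and Cdt1, and the one negative difference was that of Slbp, the histone mRNA binding protein, at -0.02. The count of 10 depended on the scaling and was 5 under median-of-ratios, 5 under upper-quartile and 3 after rescaling without the mitochondrial genes. Of these 15 genes 12 had a promoter window, and Cdc6, Cdt1, Mcm3, Mcm5 and Uhrf1 held E2F-type letters.

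Upstream, 1 of 4 mitogen-responsive transcription factors passed the unadjusted threshold, compared with 12% of all tested genes higher and 3.65% lower. Myc, whose product acts on growth and cell cycle genes, was at 89.8, 92.0, 86.1 and 92.1 TPM in control dishes and at 100.1, 99.3, 96.4 and 101.1 TPM in exposed dishes. All exposed dishes were above all control dishes, and the log2 difference was 0.14 (limma, adjusted p = 0.122). Fos, Jun and Egr1, which respond early to growth factors, were low and differed by 0.12, -0.000757 and 0.08 (limma, adjusted p = 0.699, 0.996 and 0.590). Against 12% of all tested genes, 2 of 10 ubiquitin ligase genes and partners were higher, Cul1 by 0.09 and Cks1b by 0.08 (limma, adjusted p = 0.173 and 0.309). Both are parts of or partners to the SCF ligase that removes G1 regulators, and the most negative difference of the 10 was that of Fbxo31 at -0.04. Cks1b no longer passed under any of the other 3 scalings, nor in 6 of the 8 fits that left out a dish, and Cul1 no longer passed under upper-quartile scaling or after rescaling without the mitochondrial genes (0.04). None of 6 genes of the CDK-activating kinase and the CDC25 phosphatases passed, with Cdc25c at 0.05, Cdk7 at 0.04, Mnat1 at -0.01 and Cdc25b at -0.01. Of 5 genes of later phases 4 were higher, Top2a, Cdk1, Ccnb1 and Ccnb2, by 0.07 to 0.10, with the lowest adjusted p at 0.191 in limma, against 12% of all tested genes. This count was 1 under median-of-ratios scaling (Ccnb1) and 0 under upper-quartile scaling and after rescaling without the mitochondrial genes, and 2 to 4 when a dish was left out, with the 2 reached without control dish 2 or exposed dish 3.

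**Figure D4:**
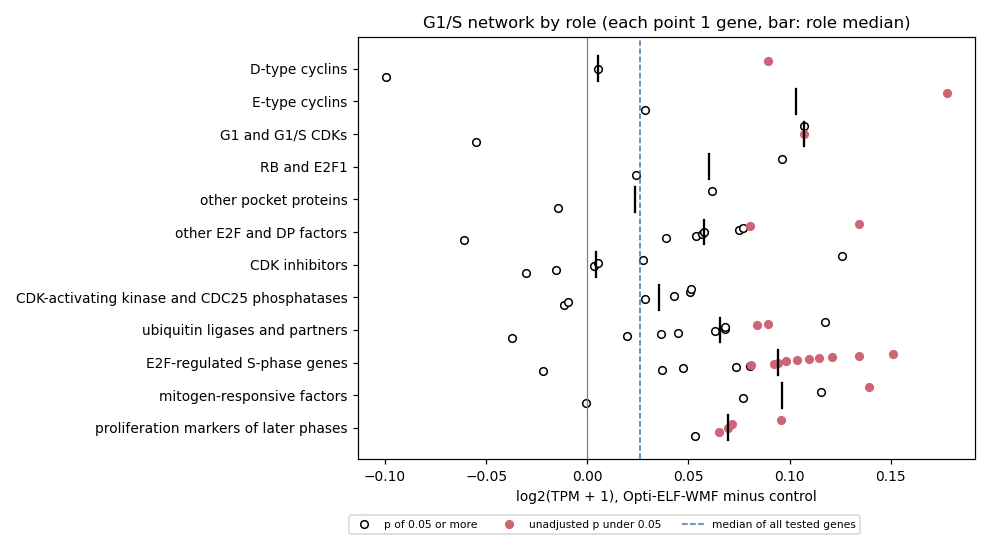
Difference in log2(TPM + 1), Opti-ELF-WMF minus control, of every tested gene of the G1/S network, by role. Each point is 1 gene, filled where the unadjusted limma p was under 0.05, and short bars are role medians. The 10 filled points of the S-phase genes lie between 0.08 and 0.15, and no filled point of any role is below 0.

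The pattern of a member over the 8 dishes was also compared with all tested genes, as a description in which all genes share the libraries and the TPM total. The genes most like Ccnd1 by Pearson's r of log2(TPM + 1) were 1810055G02Rik (0.984), Ensa (0.982) and Ap2m1 (0.978), and 162 genes had an r over 0.9. The genes most like E2f1 were Vars (0.973), Tnfrsf21 (0.961) and Sgsh (0.959), with 26 genes over 0.9.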

How the data were processed

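Stranded mRNA libraries of 4 control and 4 exposed dishes were read on a NovaSeq instrument. The authors deposited TPM values per gene; the submitters' processing notes name Trimmomatic 0.39, STAR 2.7.4a, RSEM 1.3.3 and mm10, and the annotation release and the strand setting of the counting are not given in the sources used here. Overlapping genes on opposite strands are therefore uncertain. TPM keeps no depth, so no counting error could be given. Genes with TPM of at least 1 in at least 4 dishes were compared with limma 3.58.1 (lmFit, eBayes with a trend) in R 4.3.3 on log2(TPM + 1), a scale that understates differences of low genes, with Benjamini-Hochberg adjustment over all 12122. Dishes are replicates of a single cell line, and whether all came from the same batch is not stated, so p-values measure only the spread between dishes. The members and lists were chosen with earlier results of these data known. All members were named, as were the genes they bind directly, the genes of each role with the smallest p (at most 2 per direction), and the 3 nearest patterns to Ccnd1 and E2f1. Other genes that passed the unadjusted threshold were named after their values were seen. Protein sequences were not used here. Alternatives covered pseudocount, filter, scaling, limma options, pseudogene copies, replicate block and leaving out each dish. The pipeline was tested on simulated data with the spread of these dishes. Of 100 genes changed there by a log2 difference of 0.2, 23% passed the adjusted threshold and 77% the unadjusted one. A true difference of 0.2 could therefore miss the adjusted threshold in the simulation. Differences as small as those of the members, at most 0.18, were not simulated, nor were shifts shared by all genes of a dish. Positions came from GENCODE M21, which matched 55141 of 55401 identifiers, and similar copies from BLAST 2.17.0.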

Additional observations from a re-analysis of the deposited data

Results flagged for a closer look

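Among 134 groups of 4 dishes checked for the members and the network genes, 9 had a dish far from the other 3 by Dixon's gap test, where chance alone flags about 1 in 20 groups. None was a member. Rbl2 was at 17.7 TPM in control dish 4 (the others at 16.2 to 16.5) and at 17.5 TPM in exposed dish 4 (16.1 to 16.3). Ccnh was at 28.4 TPM in control dish 3 (31.6 to 32.2). Cdc25c was at 26.8 TPM in exposed dish 4 (28.4 to 28.6) and Ccna2 at 150.7 TPM in exposed dish 1 (155.8 to 156.7). Cdt1 was at 62.8 TPM in exposed dish 2 (56.6 to 57.4). Mcm5 was at 118.3 TPM in control dish 4 (113.6 to 114.3) and at 130.0 TPM in exposed dish 2 (123.3 to 124.1). Jun was at 14.5 TPM in exposed dish 4 (15.4 to 15.5).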

How the results depend on the processing

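No library depth was known, and values for the 42 named genes were recomputed under each alternative: 700 values kept direction and side of the unadjusted threshold, 40 no longer passed it, 18 newly passed it and 41 changed sign. Where a result moved, the cause was not tested. The genes past the adjusted threshold, 0 with TPM as deposited, were 1 with the filter of at least 1 TPM in every dish, with each of the 3 other scalings, without the trend and with the robust prior, and 0 to 2 when a dish was left out. The 1894 genes with an unadjusted p under 0.05 were 1177 under upper-quartile scaling. Of the G1/S genes 3 passed the unadjusted threshold, 5 under median-of-ratios scaling, 0 under upper-quartile scaling and 2 to 6 when a dish was left out, with the 6 reached without control dish 1 (Ccnd2 and Cdk2 lower, Ccnd1, Ccne1, Cdk4 and Cdk6 higher). The 19 network genes outside the members that were higher by the unadjusted threshold were 9, 7 and 5 under median-of-ratios, upper-quartile and mitochondria-free scaling, counts added after seeing the data, and 14 to 20 when a dish was left out. With a dish left out, 8.79% to 13.4% of all tested genes were higher. Groups that did not overlap, 2 G1/S genes with TPM as deposited, were 1 under upper-quartile scaling, 0 after rescaling without the mitochondrial genes and 2 to 5 when a dish was left out, with the 5 again without control dish 1. With TPM as deposited 9.87% of all tested genes did not overlap, and that share was not computed for the alternatives. Groups separate more easily with a dish left out, so those counts cannot be set beside the 2. Whether dishes with the same number were handled together is not stated. Over all tested genes their deviations correlated between -0.0419 and 0.0258, and 0 of 4 control dishes correlated best with their own number. Such correlations cannot exclude a pairing that moves only some genes. With the replicate block 3 G1/S genes passed the unadjusted threshold, Ccnd1 and Ccne1 higher and Ccnd2 lower, and 1889 genes did in all.

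Signs changed under median-of-ratios, upper-quartile and mitochondria-free scaling for Ccnd3 (-0.0238, -0.0248 and -0.0418), Rb1 (-0.00371, -0.00477 and -0.0213), Cdkn1a (-0.0262, -0.0272 and -0.0444), Cdkn2b (-0.000925, -0.00188 and -0.0187) and Cdkn2c (-0.0229, -0.0238 and -0.0406). Ccne2 was -0.000599 and -0.0173 under the latter pair, and E2f4 was -0.00836 and Cdk7 -0.00397 under the last. When a dish was left out, the log2 difference ranged from -0.0399 to 0.0301 for Ccnd3, -0.000618 to 0.0666 for Ccne2, -0.0419 to 0.0635 for Rb1, -0.0153 to 0.0222 for Cdkn1a, -0.00698 to 0.0645 for Cdkn2b, -0.0293 to 0.0403 for Cdkn2c, -0.0403 to 0.0122 for Rbl2, -0.102 to 0.01 for E2f2, -0.039 to 0.0253 for Cdkn2d, -0.0492 to 0.0211 for Mnat1, -0.0516 to 0.031 for Cdc25b, -0.0995 to 0.00505 for Fbxo31 and -0.024 to 0.021 for Jun.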
